A study of Mus musculus with 4 samples.

Results

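The Wnt genes of the mouse hippocampus were taken as the symbols of the 19 Wnt ligands, the 10 Frizzled receptors, the secreted modulators Sfrp1 to Sfrp5, Dkk1 to Dkk4 and Rspo1 to Rspo4, the co-receptors Lrp5 and Lrp6, and Axin1, Axin2, Ctnnb1, Lef1, Tcf7, Tcf7l1 and Tcf7l2. The rule found 50 genes among the 22609 symbols of the count files. The tissue was the hippocampus of ovariectomized female mice, operated on 1 week before 20 min of occlusion of both common carotid arteries and examined after 24 h of reperfusion. There were 2 GFAP-ARO-KO libraries, from mice where Cre driven by the promoter of Gfap deletes floxed Cyp19a1, the aromatase gene behind local estrogen synthesis, in astrocytes, and 2 FLOX-control libraries. All 4 libraries shared the ovariectomy and the ischemia, and no sham-operated group was analysed here. Neither the age and strain of the mice nor the number of animals behind a library is stated in the sources used here, and nothing there says that the libraries of a group are separate animals, so p-values measure only the spread between these samples, which may be technical.

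Wnt proteins are secreted, lipid-modified ligands that bind Frizzled receptors on nearby cells. With the co-receptors Lrp5 and Lrp6, this stops the Axin-based destruction complex from degrading beta-catenin (Ctnnb1), which then enters the nucleus and switches on target genes with Tcf and Lef factors. Sfrp and Dkk proteins are secreted antagonists of the pathway, and R-spondins strengthen it by keeping Frizzled receptors on the cell surface. In the hippocampus Wnt signals are known for guiding the birth of new granule neurons and the growth of synapses, and Wnt7a and Wnt7b for forming and keeping the blood-brain barrier.

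Gene counts summed to 34878375 and 27930696 reads in the GFAP-ARO-KO libraries and to 33495548 and 33235564 in the FLOX-control libraries, and a gene with 3 reads in a library had a level of 0.0855 to 0.106 CPM (reads scaled to the library's total and its TMM factor). A chi-square test of the counts set both pairs of libraries apart beyond sampling noise (26 per degree of freedom for the knockouts, 13.8 for the controls). The targeted gene could not check the labels, since Cyp19a1 gave 1 and 9 reads in GFAP-ARO-KO and 3 and 2 in FLOX-control. Markers of hippocampal neurons were present in every library, with a summed level of 601 to 614 CPM in GFAP-ARO-KO and 435 to 462 CPM in FLOX-control for 10 dentate granule cell genes, and of 1060 to 1150 CPM against 1194 to 1353 CPM for 9 genes of the CA1 field. The second GFAP-ARO-KO library stood apart in 14 markers of meningeal fibroblasts, which summed to 2437 CPM there, against 537 CPM in the first and 604 to 631 CPM in FLOX-control; their most abundant gene, Ptgds, was at 305 and 1805 CPM in GFAP-ARO-KO and 438 and 352 CPM in FLOX-control. In whole tissue, fewer cells of a type and less RNA per cell cannot be told apart.

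Of the 50 genes, 42 passed the filter on low counts and were tested with edgeR's quasi-likelihood test over 15011 genes. With a Benjamini-Hochberg adjusted p under 0.05, 5 of the 42 were higher and 6 were lower in GFAP-ARO-KO. That is 26.2% of the tested members, beside 20.4% of all tested genes (11.9% beside 9.39% for higher, 14.3% beside 11.0% for lower). The higher count and these shares include Sfrp5, which passed the filter only through the knockouts, with 14 and 13 reads against 1 and 0. With a filter blind to the groups (a total of at least 40 reads) 4 members were higher and 6 lower. The CPM values of the groups did not overlap for 27 members, or 64.3%, beside 64.8% of all tested genes; the knockouts were above for 18 (32.0% of all tested genes) and below for 9 (32.8% of all tested genes). The median log2 fold change of the 42 was 0.17, beside 0.00 for all tested genes. The higher genes were the ligands Wnt10b and Wnt3, the receptors Fzd2 and Fzd6, and the antagonist Sfrp5, and the lower ones were the ligands Wnt7b, Wnt9a and Wnt2, the R-spondins Rspo2 and Rspo3, and the receptor Fzd10. Of these, Wnt10b and Fzd2 were called under all 14 other settings and libraries left out. The core of the pathway (Ctnnb1, Axin1, Axin2, Lrp5, Lrp6 and the 4 Tcf and Lef factors) held 0 genes past the threshold by edgeR, by limma-voom or by DESeq2, and 1 of them, Lrp5, had an unadjusted p under 0.05.

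**Figure D1:**
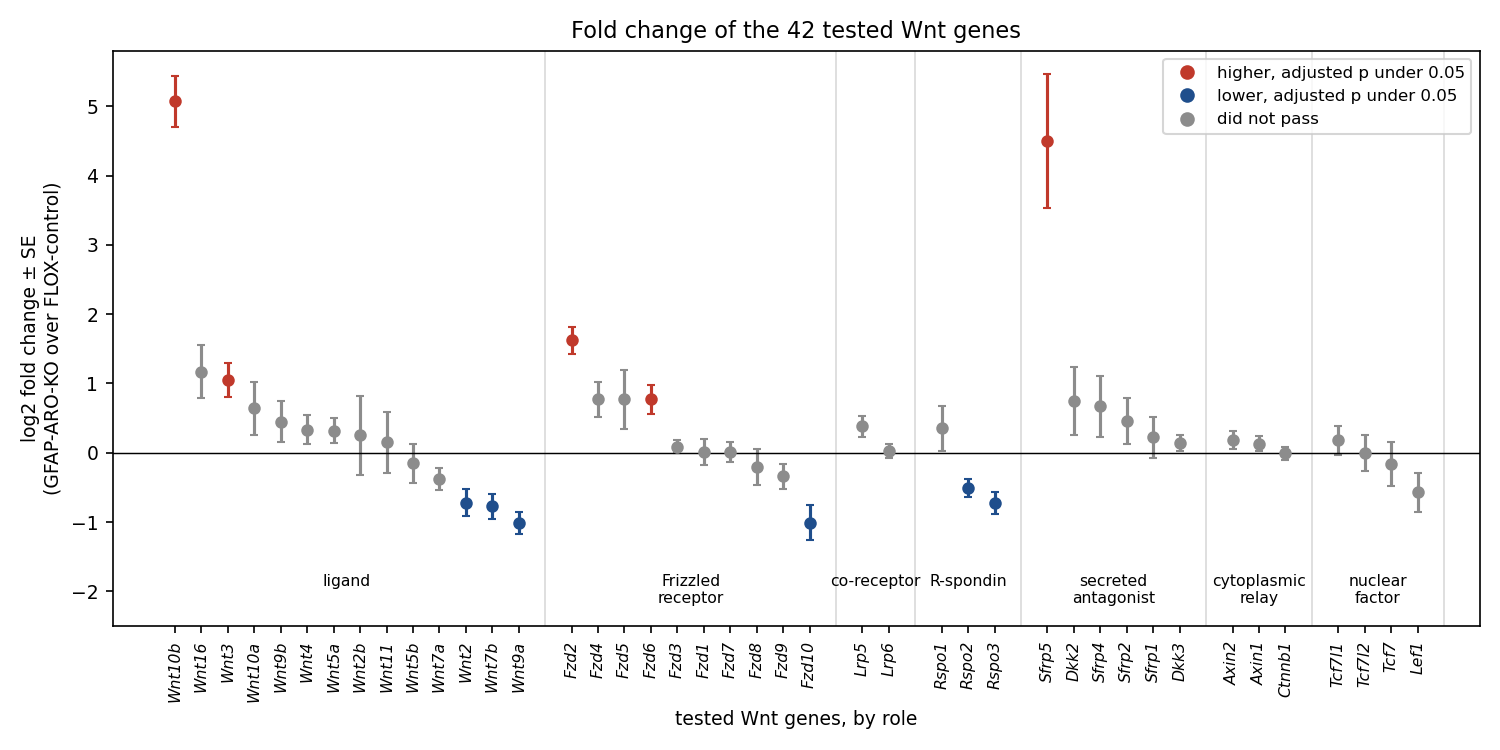
Log2 fold change (GFAP-ARO-KO over FLOX-control, vertical axis) of the 42 tested Wnt genes, grouped by role along the horizontal axis, with bars of 1 standard error. Wnt10b at 5.07 lies far above the other ligands, and the 9 genes of the co-receptors, relay and nuclear factors lie within 0.57 of 0.

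The ligand that differed most was Wnt10b, which signals through beta-catenin and is known for restraining fat cell formation and favouring bone formation. It gave 621 and 714 reads in the GFAP-ARO-KO libraries, or 17.7 and 25.3 CPM, against 31 and 11 reads, or 0.926 and 0.337 CPM, in the FLOX-control libraries. Both knockouts were far above both controls. The log2 fold change was 5.07 ± 0.37 (SE; adjusted p = 0.00097 by edgeR), a level 33.5-fold higher, and it ran from 4.53 to 5.98 with each library left out. Per kilobase of exon, Wnt10b ranked 2 of 19 ligand genes in the knockouts at 9.21 CPM per kb and 11 of 19 in the controls at 0.27 CPM per kb.

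Wnt10b lies on the minus strand of chromosome 15 (98602184 to 98608581, mm9), with Arf3, a small GTPase gene, 8539 bases below it and Wnt1 11707 bases above. No annotated gene overlaps it. Wnt1, a classical midbrain ligand, gave 0 and 1 reads in GFAP-ARO-KO and 0 in both FLOX-control libraries. Arf3 was at 2090 and 2010 CPM in GFAP-ARO-KO and 1610 and 1700 CPM in FLOX-control (log2 fold change 0.31, adjusted p = 0.0394). Beyond Wnt1, Ddn, a postsynaptic protein gene, was at 1950 and 1910 CPM against 2490 and 2720 CPM (log2 fold change -0.43, adjusted p = 0.0154), and beyond Arf3, Fkbp11 was under 1 CPM in every library. Of the 2 genes on each side, the 3 that were tested thus had far smaller differences than Wnt10b.

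Wnt3, a ligand that astrocytes of the hippocampus are known to supply to neural progenitors, was at 6.38 and 4.96 CPM in GFAP-ARO-KO and 3.17 and 2.36 CPM in FLOX-control. Both knockouts were above both controls, and the gene was 2.07-fold higher (log2 fold change 1.05 ± 0.25, adjusted p = 0.0258). Leaving out a control ended the call, at an adjusted p of 0.0746 for the first and 0.183 for the second. Its neighbour Wnt9b, 24329 bases away on chromosome 11, was at 1.51 and 1.56 CPM against 1.02 and 1.22 CPM and did not pass (adjusted p = 0.318).

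3 ligands fell. Wnt7b, the ligand gene with the highest level per kilobase of exon in both groups, was at 70.2 and 55.5 CPM in GFAP-ARO-KO and 124 and 91.0 CPM in FLOX-control. It fell by 0.77 ± 0.18 on the log2 scale (adjusted p = 0.0254), and the groups did not overlap. Leaving out the first control gave -0.53 and an adjusted p of 0.123, and leaving out the second knockout gave -0.60 and 0.0943, so each ended the call. Its exons overlap those of AU022754, a long noncoding RNA on the opposite strand. The Wnt7b counts could thus depend on whether counting used strand, which nothing states. Wnt7a, the close relative that acts on the same brain endothelial receptors, was at 16.3 and 14.9 CPM against 18.1 and 22.6 CPM and fell short of the threshold, at -0.38 ± 0.16 (log2) with an adjusted p of 0.122.

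Wnt9a, a ligand known from joint and liver development, was at 7.49 and 8.69 CPM in GFAP-ARO-KO and 15.9 and 16.6 CPM in FLOX-control. The groups were well apart, and Wnt9a was 2.02-fold lower (log2 fold change -1.01 ± 0.16, adjusted p = 0.00658). Without the second control it stood just outside the threshold, with a log2 fold change of -0.98 and an adjusted p of 0.0538. Wnt3a, which lies 16176 bases from Wnt9a on chromosome 11, gave at most 1 read in any library. Wnt2, a ligand known from lung and vessel development, was at 5.21 and 5.71 CPM in GFAP-ARO-KO and 9.98 and 8.02 CPM in FLOX-control, 1.65-fold lower (log2 fold change -0.72 ± 0.19, adjusted p = 0.0372). Either control decided the call, with an adjusted p of 0.278 when the first was dropped and 0.0993 when the second was.

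With Wnt10b up and Wnt7b down, the make-up of the ligand reads differed. Wnt10b gave 10.7% and 14.5% of the summed CPM of the 19 ligand genes in GFAP-ARO-KO, against 0.438% and 0.188% in FLOX-control. Wnt7b gave 42.3% and 31.8% in GFAP-ARO-KO, against 58.6% and 50.8% in FLOX-control. The sum over all 19 was 166 and 174 CPM in the knockouts and 212 and 179 CPM in the controls. The total lay lower in both knockouts, but the second knockout was closer to the second control than the controls were to each other. The total was not tested. These shares are of reads and so depend on gene length as well as on transcript number.

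**Figure D2:**
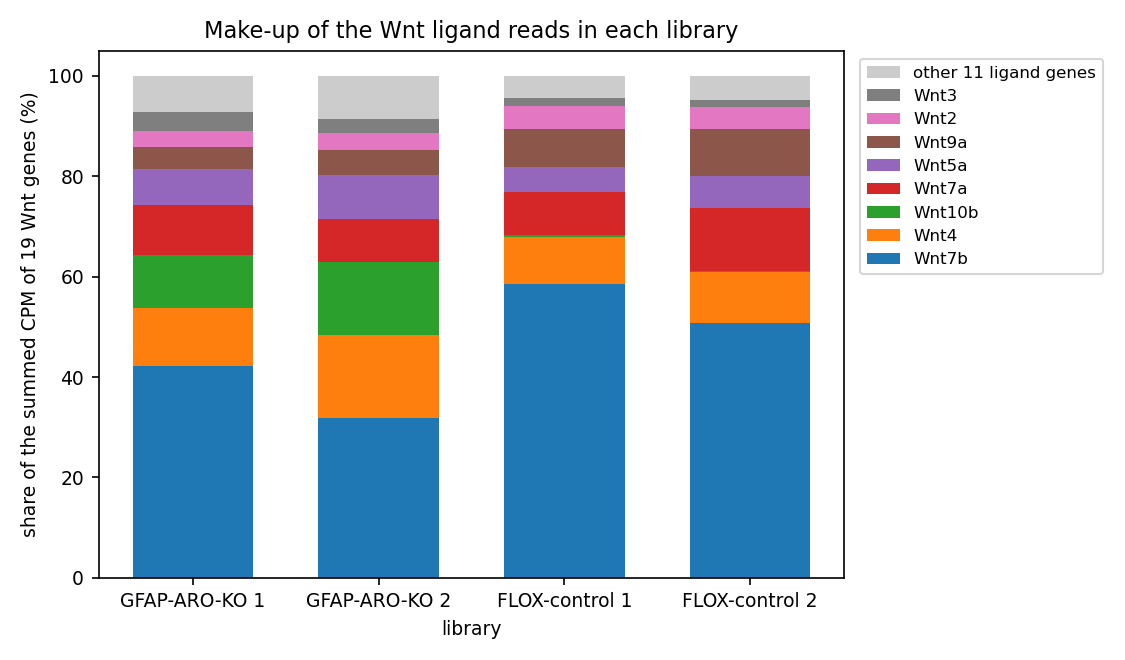
Share of the summed CPM of the 19 Wnt ligand genes (vertical axis, percent) held by each of 8 ligands and by the other 11 genes, in each library. The Wnt10b segment is 10.7% and 14.5% in GFAP-ARO-KO and under 0.5% in FLOX-control, where Wnt7b holds over 50%.

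The other 9 tested ligands did not pass, with log2 fold changes from -0.38 for Wnt7a to 1.17 for Wnt16. Among them Wnt2b, Wnt11 and Wnt5b had 0.25, 0.15 and -0.15, and each took the other sign when 1 library was left out. Wnt16 was at 0.968 and 1.10 CPM in GFAP-ARO-KO and 0.478 and 0.428 CPM in FLOX-control, with the knockouts above the controls but an adjusted p of 0.0666. Of the untested ligands, Wnt8a gave 0 reads in all 4 libraries, which at this depth allows a level of up to 0.0855 to 0.106 CPM, and Wnt8b gave 3 and 1 reads in GFAP-ARO-KO and 1 in each FLOX-control library. Wnt4, known from kidney and female reproductive tract development, at 18.9 and 29.0 CPM against 19.7 and 18.1 CPM, and Wnt5a, a ligand of beta-catenin-independent signaling, at 11.9 and 15.6 CPM against 10.5 and 11.4 CPM, were highest in the second knockout library. Both were called higher when the first knockout library was left out (Wnt4 log2 fold change 0.62, adjusted p = 0.00569; Wnt5a 0.51, adjusted p = 0.0334). Wnt6 did not pass the filter on low counts and gave 5 and 96 reads in GFAP-ARO-KO and 3 and 4 in FLOX-control, so 1 library held nearly all of its reads. That library is the one in which the meningeal markers were high, and a link with Wnt6 was not tested. Its partner 6197 bases away on chromosome 1, Wnt10a, went the other way between the knockouts, at 5.58 and 3.08 CPM, against 3.70 and 1.96 CPM in the controls (adjusted p = 0.276).

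The promoters of 4 of the 5 called ligands, all but Wnt7b, are shown to give the sequence before and at their starts. RefSeq windows of 300 bases (250 before to 50 after the gene's start, table built on GRCm38.p6) existed for 33 of the 50 members, and each sequence printed had 1 exact match on its chromosome in NCBIM37, the assembly behind mm9, whose coordinates are given. Capitals mark a match to the motif bound by Tcf and Lef factors, the letters CTTTG followed by AA, AT, TA or TT, on either strand. The windows were chr15:98608532-98608831 (minus strand) for Wnt10b, chr11:103635239-103635538 (plus strand) for Wnt3, chr6:17980396-17980695 (minus strand) for Wnt2, and chr11:59120182-59120481 (plus strand) for Wnt9a.
Wnt10b: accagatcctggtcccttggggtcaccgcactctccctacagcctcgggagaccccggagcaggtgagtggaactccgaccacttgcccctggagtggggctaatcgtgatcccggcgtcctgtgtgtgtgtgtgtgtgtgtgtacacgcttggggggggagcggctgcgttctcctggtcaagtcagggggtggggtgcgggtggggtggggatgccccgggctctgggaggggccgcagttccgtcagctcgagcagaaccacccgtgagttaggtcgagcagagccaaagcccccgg
Wnt3: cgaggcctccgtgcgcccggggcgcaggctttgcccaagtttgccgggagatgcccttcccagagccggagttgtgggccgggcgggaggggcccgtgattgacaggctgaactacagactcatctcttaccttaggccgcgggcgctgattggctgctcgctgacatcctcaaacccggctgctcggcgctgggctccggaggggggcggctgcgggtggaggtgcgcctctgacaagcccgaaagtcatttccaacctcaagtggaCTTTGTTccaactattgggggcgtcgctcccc
Wnt2: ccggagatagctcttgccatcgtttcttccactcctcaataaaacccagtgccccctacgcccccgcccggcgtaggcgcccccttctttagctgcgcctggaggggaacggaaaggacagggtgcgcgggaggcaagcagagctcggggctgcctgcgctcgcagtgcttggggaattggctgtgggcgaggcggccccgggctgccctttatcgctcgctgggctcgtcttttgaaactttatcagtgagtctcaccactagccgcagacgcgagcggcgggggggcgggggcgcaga
Wnt9a: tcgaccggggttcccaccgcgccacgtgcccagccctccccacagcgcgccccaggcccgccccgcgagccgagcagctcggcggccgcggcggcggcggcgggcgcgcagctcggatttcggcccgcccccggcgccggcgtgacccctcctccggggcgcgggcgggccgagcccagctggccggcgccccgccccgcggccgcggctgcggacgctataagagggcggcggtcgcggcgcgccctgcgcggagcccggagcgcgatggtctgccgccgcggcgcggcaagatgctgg
Only the window of Wnt3 among these 4 holds a match, beginning 18 bases after the annotated start. Of members with a window, 7 of 33, or 21.2%, hold a match in at least 1 window, beside 18.9% of all 27025 genes with a window. Axin2, the best-known target of beta-catenin, has no match in its window. The 4 windows are rich in G and C, with 66.3% in Wnt10b, 65.7% in Wnt3 and in Wnt2, and 83.3% in Wnt9a, beside a median of 52.7% over all windows.

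Among the Frizzled receptors, Fzd2, which binds Wnt5a among other ligands, rose most. It gave 679 and 466 reads in GFAP-ARO-KO, or 19.3 and 16.5 CPM, against 225 and 163 reads, or 6.72 and 4.99 CPM, in FLOX-control. The groups were wide apart, and Fzd2 was 3.07-fold higher (log2 fold change 1.62 ± 0.19, adjusted p = 0.00316), from 1.41 to 1.85 on the log2 scale with each library left out. The gene (chromosome 11, 102465745 to 102469372, mm9) has no annotated overlap. Its neighbours below, Gm11627 and Gpatch8, were also higher, by 1.04 (adjusted p = 0.0497) and 0.39 (adjusted p = 0.0369) on the log2 scale. Its neighbours above, 2810433D01Rik and Gm1564, were not tested.

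Fzd6, a receptor known for tissue polarity and hair patterning, was at 6.12 and 7.84 CPM in GFAP-ARO-KO and 3.91 and 4.19 CPM in FLOX-control. It was 1.71-fold higher (log2 fold change 0.77 ± 0.21, adjusted p = 0.0394), but among the fits with 1 library dropped it passed only without the first knockout; the adjusted p was 0.208 and 0.172 when the first or second control was dropped, and 0.0789 when the second knockout was. Fzd4, the receptor of Norrin in vessels, was at 7.83 and 12.7 CPM in GFAP-ARO-KO and 5.85 and 6.06 CPM in FLOX-control. Its log2 fold change was the same 0.77, with a larger error of 0.25, and it did not pass (adjusted p = 0.0683), although DESeq2 called it (0.0376), as did the fit with the replicate number as a block (0.0366). It was highest in the library with the most meningeal signal, where 12 endothelial markers also summed to 343 CPM, against 249 CPM in the first knockout and 256 to 268 CPM in FLOX-control. The part of these cells in the Fzd4 values was not tested.

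Fzd10 fell. It gave 55 and 52 reads in GFAP-ARO-KO, or 1.57 and 1.84 CPM, against 114 and 112 reads, or 3.41 and 3.43 CPM, in FLOX-control. The replicates of each group lay close together, and the gene was 2.02-fold lower (log2 fold change -1.01 ± 0.25, adjusted p = 0.0287). DESeq2 gave an adjusted p of 0.0727, and edgeR gave 0.148 and 0.154 when the first or second control was dropped, none of which is a call. The noncoding RNA gene 5930412G12Rik lies 151 bases below Fzd10 on the opposite strand of chromosome 5. It was at 0.712 and 1.13 CPM in GFAP-ARO-KO and 5.20 and 6.27 CPM in FLOX-control, a fall of 2.66 on the log2 scale (adjusted p = 0.00271). Farther on the same side, Tmem132d fell by 0.82 (adjusted p = 0.0103). These neighbours were looked up because Fzd10 was called.

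The other receptors did not pass. Fzd3, the most abundant receptor gene, which guides axons and neuronal polarity, was at 109 and 112 CPM in GFAP-ARO-KO and 103 CPM in both FLOX-control libraries (log2 fold change 0.09 ± 0.09, adjusted p = 0.491). Fzd1, Fzd7, Fzd8 and Fzd9 had log2 fold changes from -0.34 to 0.01, and Fzd5 had 0.77 ± 0.43, with 0.657 and 1.84 CPM in the controls far apart. Of the co-receptors, Lrp6 was at 54.4 and 55.8 CPM in GFAP-ARO-KO and 53.1 and 55.7 CPM in FLOX-control, and these ranges overlapped (adjusted p = 0.92). Lrp5 was at 18.4 and 15.2 CPM against 13.2 and 12.6 CPM (log2 fold change 0.38 ± 0.15, adjusted p = 0.118), and passed without the second knockout library (0.0409).

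**Figure D3:**
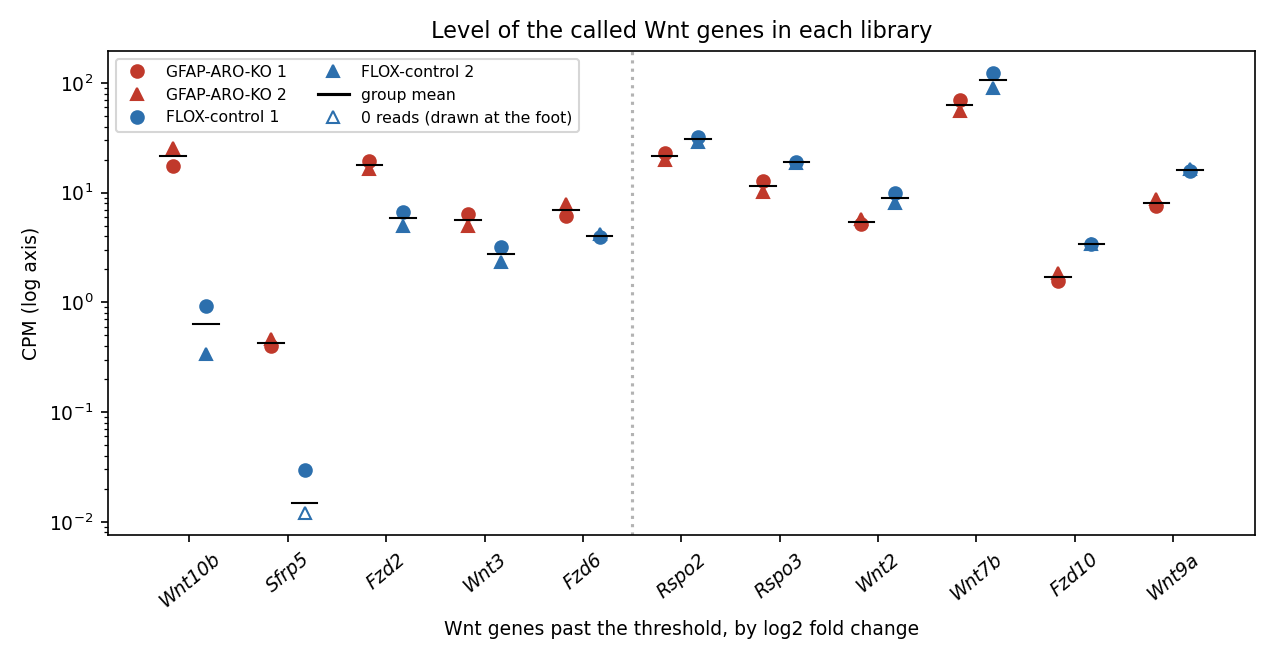
CPM of the 11 called Wnt genes in each library (log axis), ordered by log2 fold change, with a line at each group mean and an open symbol at the foot for 0 reads. For all 11 genes both GFAP-ARO-KO libraries lie on one side of both FLOX-control libraries, and the gap is widest for Wnt10b among genes with over 100 reads in a library.

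Of 3 tested R-spondins 2 fell, beside 11.0% of all tested genes. Rspo3, which is also known for guarding endothelial cells, was at 12.8 and 10.2 CPM in GFAP-ARO-KO and 19.2 and 18.8 CPM in FLOX-control. It was 1.64-fold lower (log2 fold change -0.72 ± 0.16, adjusted p = 0.0204), a call that ended when a control was dropped (adjusted p 0.122 for the first, 0.111 for the second). Rspo2, known from limb and lung growth, was at 23.2 and 19.9 CPM in GFAP-ARO-KO and 32.5 and 29.2 CPM in FLOX-control, 1.43-fold lower (log2 fold change -0.51 ± 0.13, adjusted p = 0.0346). Here the adjusted p was 0.237 and 0.122 with the first or second control dropped and 0.0707 with the second knockout dropped. For both genes the knockouts were below the controls. Rspo1, at 1.11 and 1.38 CPM against 1.08 and 0.857 CPM, did not pass (adjusted p = 0.487), and Rspo4 gave at most 2 reads in any library.

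Of the secreted antagonists only Sfrp5 passed, at levels near the limit of detection. It gave 14 and 13 reads in GFAP-ARO-KO and 1 and 0 reads in FLOX-control. Summed over each group its level was 28.2-fold higher (95% counting interval 4.65 to 1155; adjusted p = 0.015). It passed the filter on low counts only through the knockouts, had an adjusted p of 0.0604 by DESeq2 and of 0.0869 or 0.142 when the first or second control was dropped, and could not be tested with a filter blind to the groups. Dkk3, a divergent Dickkopf made by hippocampal neurons, was the most abundant modulator at 591 and 718 CPM in GFAP-ARO-KO and 632 and 557 CPM in FLOX-control, and these ranges overlapped (adjusted p = 0.445). Sfrp1, Sfrp2, Sfrp4 and Dkk2 had log2 fold changes from 0.22 to 0.74 and did not pass. Sfrp1 turned on the knockout libraries, at 4.53 and 8.19 CPM against 5.50 and 5.23 CPM, with a log2 fold change of 0.61 without the first and -0.23 without the second. Dkk1, the classical Lrp6 antagonist, gave 1 read in 1 control library and 0 in the others, and Dkk4 gave 1 read in 1 knockout library and 0 in the others.

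Of the 7 relay and nuclear genes, 0 passed by edgeR, DESeq2 or limma-voom, and 0 had an unadjusted p under 0.05 by edgeR. Ctnnb1, which encodes beta-catenin, was at 674 and 663 CPM in GFAP-ARO-KO and 698 and 652 CPM in FLOX-control, with overlapping ranges (log2 fold change -0.01 ± 0.09, adjusted p = 0.93). RNA levels do not measure the protein, whose stability is what Wnt signals control. Axin2, which beta-catenin switches on and which feeds back on the pathway, was at 24.7 and 28.6 CPM in GFAP-ARO-KO and 23.5 and 23.1 CPM in FLOX-control. The knockouts lay just above the controls, and the difference of 0.19 ± 0.13 (log2) missed the threshold (adjusted p = 0.324). Axin1, the scaffold of the destruction complex, was at 43.2 and 40.6 CPM against 39.0 and 37.5 CPM (adjusted p = 0.421).

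Of the nuclear factors, Tcf7l1 was the most abundant by CPM at 3.87 and 4.65 CPM in GFAP-ARO-KO and 3.79 and 3.67 CPM in FLOX-control (adjusted p = 0.578). Lef1, itself a target of the pathway in many tissues, was at 1.48 and 2.13 CPM in GFAP-ARO-KO and 2.51 and 2.75 CPM in FLOX-control. Both knockouts were below both controls, but the difference fell short of the threshold, at -0.57 ± 0.28 (log2) with an adjusted p of 0.188. Tcf7 and Tcf7l2 had log2 fold changes of -0.16 and -0.01. The exons of Tcf7l1 overlap Gm15401 and those of Ctnnb1 overlap Ulk4, both on the opposite strand, so their counts could depend on whether counting used strand. The exons of Axin2, Sfrp2, Wnt5a and Wnt11 also overlap genes on the opposite strand, none of them among the counted symbols. Without strand, reads of these partners could be counted for the Wnt genes.

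Members also varied within each group. In GFAP-ARO-KO 7 of 42 members were at least 1.5-fold higher in the second library than in the first, or 16.7%, beside 7.37% of all tested genes, and 1 was as far below, Wnt10a. The 7 were Dkk2, Fzd4, Sfrp1, Tcf7, Wnt11, Wnt4 and Wnt5b, none of them called with all libraries. In FLOX-control 3 of 42 members were that much higher in the second library, or 7.14%, beside 3.96% of all tested genes, and 4 were as far below. The number of members called moved with the libraries used, and so did that of all tested genes. Without the first knockout 9 were higher and 6 lower, and without the second 5 were higher and 4 lower. Without either control 2 were higher, and the lower count was 1 in each fit.

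**Figure D4:**
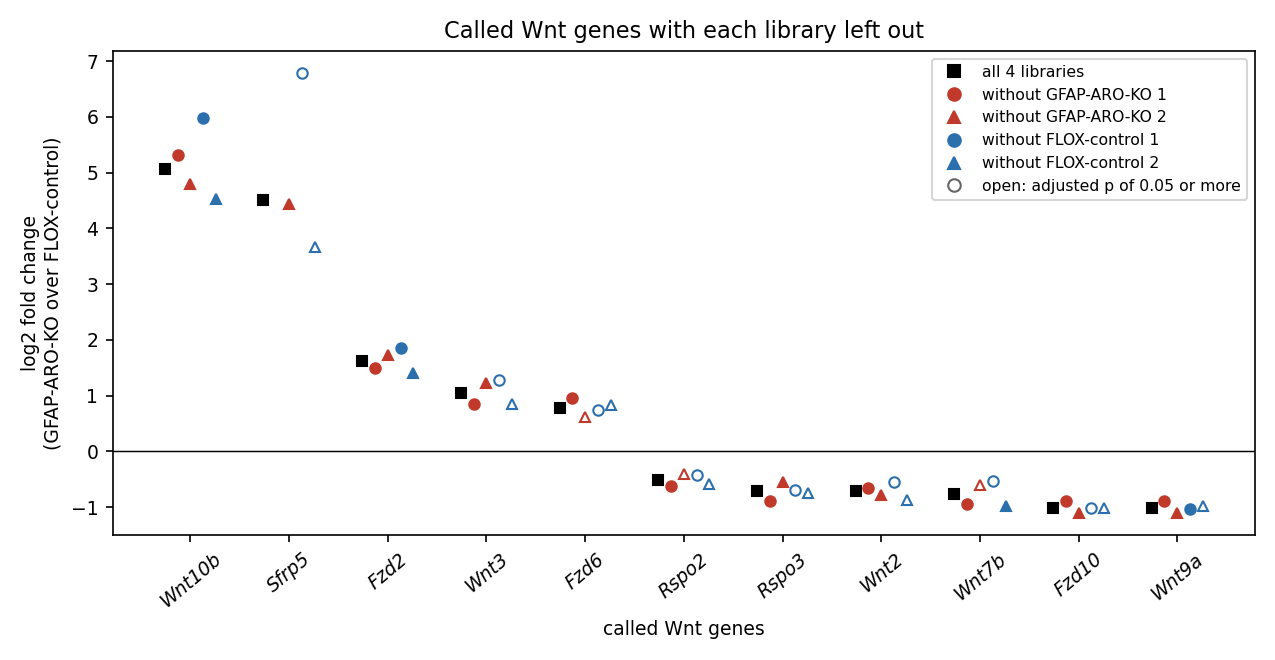
Log2 fold change of the 11 called genes with all 4 libraries and with each library left out, where filled symbols have an adjusted p under 0.05. Wnt10b and Fzd2 are filled throughout, the signs of all 11 stay the same, and most open symbols are fits that leave out a control library; Sfrp5 could not be tested without GFAP-ARO-KO replicate 1.

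Genes that work around the members were listed in 8 groups, 139 genes in all, of which 127 were tested. Of these, 7 were higher and 15 lower, or 17.3%, beside 20.4% of all tested genes, with a median log2 fold change of 0.03. Some genes stand in more than 1 group. The lists were chosen with earlier results of these data known, so their shares only describe. The counts fell when a control library was left out and rose when the first knockout was, as they did for all tested genes.

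At the membrane, 2 of 18 genes fell and 0 rose, so that 11.1% fell, beside 11.0% of all tested genes. Lgr6, a receptor of R-spondins, was at 2.39 and 2.45 CPM in GFAP-ARO-KO and 8.51 and 7.59 CPM in FLOX-control, a fall of 1.73 ± 0.21 on the log2 scale (adjusted p = 0.00316). Ndp, which encodes Norrin, the Fzd4 ligand made by astrocytes, was at 7.04 and 4.96 CPM in GFAP-ARO-KO and 17.9 and 18.1 CPM in FLOX-control. It fell by 1.57 ± 0.19 (adjusted p = 0.00332). Both genes lay clearly below the controls in each knockout and passed with any library left out. The other R-spondin receptors, Lgr4 and Lgr5, did not pass (log2 fold changes 0.14 and 0.25).

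Among 8 genes of ligand release and transport, 1 rose and 1 fell, or 25% called, beside 20.4% of all tested genes. The shares called were 16.7% for 6 other secreted inhibitors and 10.3% for 29 relay genes. The glypican gene Gpc6 was at 30.3 and 31.7 CPM in GFAP-ARO-KO and 15.1 and 11.6 CPM in FLOX-control (rose by 1.21 ± 0.15, adjusted p = 0.00377). Vps35, a retromer gene, fell by 0.40 ± 0.09 (adjusted p = 0.0247), a call that ended with either control dropped (0.161 and 0.122) or the second knockout (0.06). Of 6 other secreted inhibitors, Wif1 fell by 1.32 ± 0.37 (adjusted p = 0.0427), a call lost with any of the 4 libraries left out, and Sostdc1, at -0.83 ± 0.27, missed the threshold (adjusted p = 0.0639). Of 29 relay genes, Frat1, which binds the kinase GSK3, rose by 0.63 ± 0.13 (adjusted p = 0.0176), Nkd2 rose, and Csnk1g2, a casein kinase, fell by 0.32 ± 0.09 (adjusted p = 0.0423). With the first control dropped their adjusted p values were 0.146, 0.268 and 0.227.

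Among 14 planar polarity genes 7.14% were called, beside 20.4% of all tested genes. Of 19 nuclear co-factors, 4 fell and 1 rose, or 26.3% called. With the first or second control dropped 1 of them fell, while the lower calls among all tested genes went to 551 and 518, against 1652 with all libraries. The co-repressor gene Tle1 was at 40.7 and 44.9 CPM in GFAP-ARO-KO and 76.5 and 66.6 CPM in FLOX-control (fell by 0.74 ± 0.12, adjusted p = 0.00706), while its paralog Tle3 rose by 0.72 (adjusted p = 0.0135). Each of these 2 lost its call when the first control was dropped (0.0586 for Tle1, 0.081 for Tle3). Sox7, an endothelial factor, fell by 1.45 ± 0.26 (adjusted p = 0.0103, and 0.0764 with the second control dropped). Of 14 planar polarity genes 1 fell, Fuz, by 0.92 ± 0.17 (adjusted p = 0.0114), a call that ended with the first (0.0555) or second control dropped (0.0973), while Celsr1, at 0.41 ± 0.17, missed the threshold (adjusted p = 0.133).

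Of 24 tested genes known as targets of beta-catenin, 5 fell, 1 rose and 18 did not pass. Thus 20.8% fell, beside 11.0% of all tested genes, and 4.17% rose, beside 9.39%. Fosl1, a subunit of the AP-1 factor that many other signals also induce, was at 0.199 and 0.248 CPM in GFAP-ARO-KO and 3.85 and 2.69 CPM in FLOX-control, a fall of 3.87 ± 0.44 (adjusted p = 0.00279). The cyclin gene Ccnd2 was at 69.4 and 62.6 CPM against 98.2 and 104 CPM (fell by 0.61 ± 0.10, adjusted p = 0.00847). Myc, Nrcam and Sox9 also fell, by 0.84, 0.43 and 0.50, and Sox4 rose by 0.67; with the second control dropped, Fosl1 alone of the 6 passed. Among the 18 that did not pass, Nkd1 had a log2 fold change of -0.34, Rnf43 of -0.30, Znrf3 of 0.28, Notum of 0.74 and Apcdd1 of 0.21. The median of the list was -0.12. With the first control dropped, 3 targets fell and 0 rose.

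Genes that Wnt signals control in brain endothelium were described apart, since Wnt7b and Ndp, both lower, act on those cells. Of 17 tested, 2 rose, 0 fell and 15 did not pass, with a median log2 fold change of 0.31. That is 11.8% called, beside 20.4% of all tested genes. Mfsd2a, the lipid transporter of the blood-brain barrier, was at 85.9 and 99.4 CPM in GFAP-ARO-KO and 33.3 and 28.1 CPM in FLOX-control, a rise of 1.59 ± 0.13 (adjusted p = 0.00106) that passed with any library left out. The glucose transporter gene Slc2a1 was at 178 and 168 CPM against 127 and 109 CPM (rose by 0.55 ± 0.11, adjusted p = 0.0142, and 0.121 with the second control dropped). The tight junction gene Cldn5 was at 21.2 and 33.3 CPM against 26.7 and 26.8 CPM (log2 fold change 0.02). How many of the 17 passed moved with the knockout library left out, in larger proportion than for all tested genes. Single genes of the list differed between the knockouts, such as Itm2a, at 14.8 and 33.6 CPM in GFAP-ARO-KO and 31.5 and 32.9 CPM in FLOX-control. Without the first knockout library the log2 fold changes of Mfsd2a and Slc2a1 were 1.69 and 0.51, and without the second 1.49 and 0.61. The sum of 12 endothelial markers was highest in the second knockout library, as given above, but the markers did not move together. Of the 12, 2 rose and 1 fell, Flt1, at 21.1 and 23.7 CPM in GFAP-ARO-KO and 39.2 and 41.9 CPM in FLOX-control. The part of endothelial cells in these values was not tested.

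**Figure D5:**
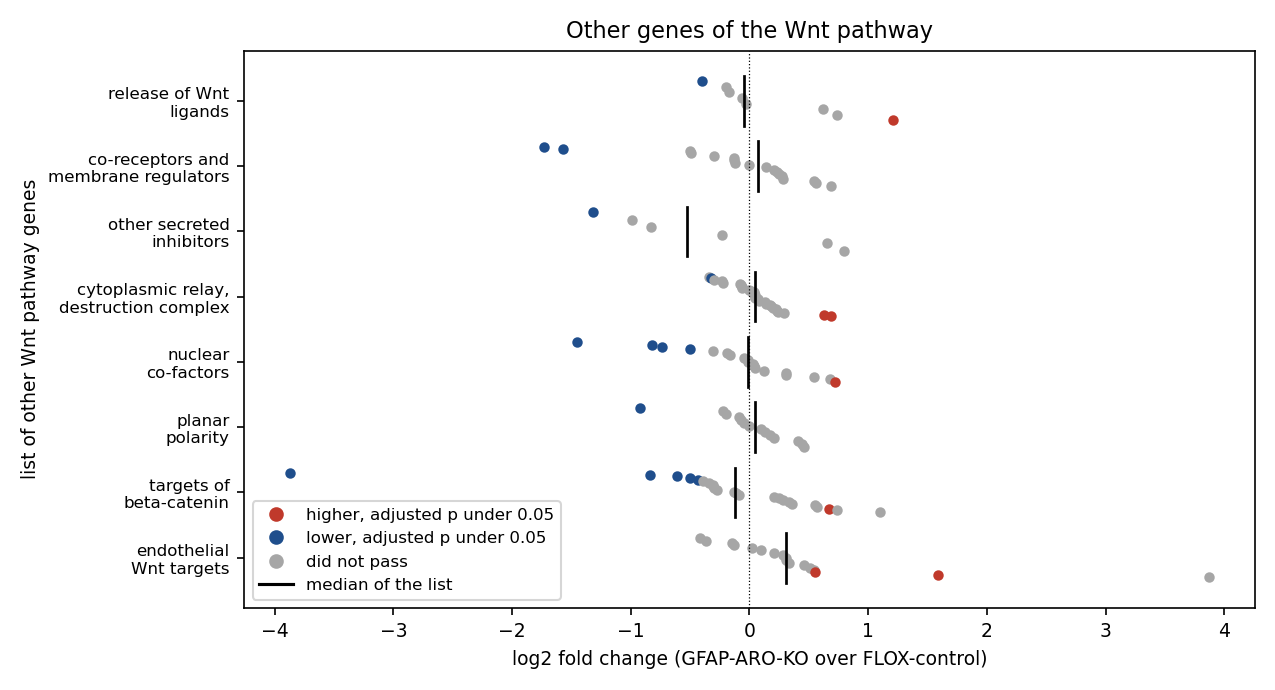
Log2 fold change (GFAP-ARO-KO over FLOX-control, horizontal axis) of 127 tested genes in 8 lists, some genes in more than 1, with a line at each list's median. The list medians run from -0.53 to 0.31, and the lowest value is Fosl1 at -3.87; the highest, Fgfbp1 at 3.87, did not pass.

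Cell type markers moved beside these genes. Among all tested genes 9.39% rose and 11.0% fell. Of 11 microglia and macrophage markers 9 fell, or 81.8%, with summed levels of 288 to 294 CPM in GFAP-ARO-KO and 528 to 591 CPM in FLOX-control. For the oligodendrocyte lineage 64.3% fell, and for dentate granule cells 60% rose. Of 14 oligodendrocyte lineage markers, Mbp the most abundant, 9 fell (3744 to 3994 CPM against 4394 to 4612 CPM), or 5 and 4 with the first or second control dropped. Of 10 dentate granule cell markers 6 rose, or 3 and 2 with the first or second control dropped, and the most abundant, Calb1, was at -0.24 (log2) with an adjusted p of 0.308. Of 10 astrocyte markers, Slc1a2 the most abundant, 2 rose, Gjb6 and Fgfr3, and 2 fell, Gfap and Aqp4 (5381 to 5634 CPM against 6254 to 6577 CPM). Gfap was at 761 and 709 CPM in GFAP-ARO-KO and 1378 and 1435 CPM in FLOX-control, and Gjb6 at 84 and 119 CPM against 46.6 and 47.1 CPM. Of 10 thalamus markers, Adarb1 the most abundant, 1 rose and 2 fell (398 to 415 CPM against 516 to 525 CPM). Their median log2 fold change was 0.09, and most of the gap in the sum lay in Slc17a6, at 11.1 and 19.7 CPM in GFAP-ARO-KO and 117 and 111 CPM in FLOX-control. 0 of 14 meningeal markers passed with all 4 libraries by edgeR, with 1 at an unadjusted p under 0.05 and 1 called by DESeq2, and 12 were higher without the first knockout. For neocortex layers 3 of 7 markers fell (226 and 239 CPM in GFAP-ARO-KO, 344 and 241 CPM in FLOX-control). Mural markers summed to 128 and 331 CPM against 103 and 115 CPM, and 1 of 10 rose. CA1, excitatory and inhibitory neuron markers had 3 of 9, 2 of 9 and 3 of 10 lower and 0 higher. CA2 and CA3 markers had 3 of 12 higher and 2 lower, choroid plexus 2 of 9 and 1, endothelium 2 of 12 and 1, and striatum 2 of 9 and 0. 0 of the markers in these lists had 0 reads in any library. The part of these cells in the values of the Wnt genes was not tested.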

How the data were processed

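The authors deposited raw read counts per gene symbol, 1 file for each library, with 22609 symbols and, below them, 5 rows of reads assigned to no gene. Per the labels' protocols, total RNA libraries were sequenced as single-end reads; per the submitters' processing notes, bcl2fastq, TopHat2 2.0.8b (mm9) and HTSeq were used. Strand setting and annotation of the counting are not stated in the sources used here. The rows assigned to no gene, 45.17% to 47.3% of entries, stayed out of library sizes and tests.

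Sample titles gave the groups. The edgeR function filterByExpr (minimum count 10) left 15011 genes, which were tested with edgeR 4.0.16 in R 4.3.3 (TMM, robust glmQLFit with legacy=FALSE, glmQLFTest) with Benjamini-Hochberg adjustment over all of them and a threshold of 0.05. The error of a log2 fold change is its size over the root of the F statistic. With 2 libraries a group, SDs and errors are imprecise, and counting intervals cover counting error only. Alternatives were RLE and upper-quartile scaling, 3 other filters, legacy and non-robust estimation, limma-voom 3.58.1, DESeq2 1.42.0, a replicate block and each library left out. The steps were tested on simulated data. Positions and exon lengths come from GENCODE vM1 on NCBIM37; Fzd10, annotated under 2 entries, was taken as its protein-coding entry.

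Values of every library are given for members past the threshold, the most abundant member of each role, and Axin2, Lef1, Ctnnb1, Lrp5 and Lrp6; for pathway lists the 2 genes with the smallest p are named, and other listed genes were picked once their values were known. The members and lists were chosen with earlier results of these data known.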

Additional observations from a re-analysis of the deposited data

How the results depend on the processing

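Scaling, filters, estimation and tool changed few calls. The counts of members were 4 or 5 higher and 5 or 6 lower under all 9 of these alternatives, and all genes gave a median log2 fold change within 0.028 of 0. The other pathway genes called higher went to 11 with DESeq2 and to 11 with the replicate block, against 7. Ctnnb1 and Tcf7l2, both near 0, changed sign, with 0.01 for each under upper-quartile scaling, 0.0013 and 0.0023 with a minimum count of 30, and 0.0017 for Tcf7l2 with DESeq2.

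The same-numbered libraries share only a number. Their deviations from the group means had r = -0.0057 across 15011 genes, and with the replicate block 6 members were higher and 6 lower, and 14 other pathway genes were lower.

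Leaving out 1 library in turn gave 2 to 9 members higher and 1 to 6 lower, 3 to 22 other pathway genes higher and 4 to 18 lower, and 296 to 2387 of all genes higher and 518 to 2433 lower; the low counts came without a control. In these fits the lone library of a group is assumed to vary like the other group. The log2 fold changes that changed sign ran from -0.06 to 0.04 for Ctnnb1, -0.21 to 0.29 for Fzd1, -0.04 to 0.07 for Fzd7, -0.44 to 0.09 for Fzd8, -0.01 to 0.05 for Lrp6, -0.23 to 0.61 for Sfrp1, -0.47 to 0.15 for Tcf7, -0.19 to 0.20 for Tcf7l2, -0.32 to 0.58 for Wnt11, -0.34 to 1.26 for Wnt2b and -0.48 to 0.17 for Wnt5b, none of them called. The cause was not tested. With 2 libraries a group, no test of an outlying library was possible.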
